A study of Mus musculus with 24 samples.

Results

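The 10 chemokine genes of mouse epididymal fat described here are Ccl3, Ccl4, Ccl5, Ccl6, Ccl9, Ccl22, Cxcl1, Cxcl2, Cxcl12 and Cx3cl1. They were chosen by name, leaving out the ligands of the Ccl2 and Ccr2 axis, and all 10 of 10 were measured among 19938 named genes. Each had 1 probe set that named that gene alone. RNA of epididymal white fat was hybridised to one-colour Affymetrix arrays from 24 male wild-type C57Bl/6 mice, 6 in each of 4 groups: lard-fed conventional, lard-fed germ-free, fish oil-fed conventional and fish oil-fed germ-free. All animals shared an age of 11 weeks, which the series' design text reads as the age when feeding began, 11 weeks of a diet with 45% of its energy as fat, and a fast of 4 hours before death. The diets differed in the source of the fat, lard or menhaden fish oil. Conventional mice carry a gut microbiota and germ-free mice carry none. Bacterial status and colony cannot be told apart, and whole fat depots were measured, so fewer cells of a type and less RNA per cell cannot be told apart either.

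Chemokines are small secreted proteins that steer leukocytes through receptors on the cell surface. The names follow the spacing of conserved cysteines: CC and CXC ligands differ in the residues between the leading pair, and Cx3cl1 stands alone in its class. In obese fat, macrophages, dendritic cells and lymphocytes collect around adipocytes, and chemokines are among the signals that bring them in or hold them there. Ccl6 and Ccl9 are mouse CC chemokines made mainly by myeloid cells, with Ccr1 as a receptor. Ccl3 and Ccl4 are made by activated macrophages and lymphocytes, and Ccl3 acts on Ccr1. Ccl5, a product of T and natural killer (NK) cells, acts on Ccr1 and Ccr3, among others. Ccl22, made by dendritic cells and macrophages, attracts T cells that carry Ccr4. Cxcl1 and Cxcl2 attract neutrophils through Cxcr2. Cxcl12, made by stromal and endothelial cells, holds leukocytes and progenitors through Cxcr4, and Ackr3 removes it. Cx3cl1 is made as a membrane-bound adhesion molecule and acts on Cx3cr1 of monocytes and macrophages.

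The promoter stretches of 2 pairs of related members are given here because Ccl6 and Ccl9 rose together with lard, and Cxcl1 and Cxcl2 did not. They are RefSeq sequences of mouse build GRCm38.p6, written 5′ to 3′ on the strand of the gene and taken from the 250 bases before the annotated start. A promoter entry was found for 8 of the 10 members, and Ccl4 and Ccl5 had none. Ccl6 lies on the minus strand at chr11:83593088-83593187 and Ccl9 on the minus strand at chr11:83578637-83578736. Capitals mark the longest run of letters that the 2 promoters share, of 13 bases.
Ccl6: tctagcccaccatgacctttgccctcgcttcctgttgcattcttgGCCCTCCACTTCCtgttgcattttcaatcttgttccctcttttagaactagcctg
Ccl9: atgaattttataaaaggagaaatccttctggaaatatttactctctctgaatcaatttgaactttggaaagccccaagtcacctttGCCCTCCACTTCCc
Both stretches end at the base before the start, and the run begins at -55 in Ccl6 and at -14 in Ccl9. It contains ACTTCC, the opposite strand of GGAAGT, a core bound by ETS factors, which include the myeloid factor Spi1.

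Cxcl1 lies on the plus strand at chr5:90891144-90891223 and Cxcl2 on the plus strand at chr5:90903772-90903851. Capitals again mark the longest shared run, of 14 bases.
Cxcl1: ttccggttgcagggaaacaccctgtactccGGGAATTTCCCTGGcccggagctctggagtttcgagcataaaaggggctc
Cxcl2: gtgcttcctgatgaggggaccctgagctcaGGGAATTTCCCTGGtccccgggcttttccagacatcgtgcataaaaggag
The run begins at -71 in Cxcl1 and at -97 in Cxcl2 and opens with GGGAATTTCC, a letter string of the NF-kappaB type. Searched for on both strands (GGGAATTTCC or GGAAATTCCC) in the 250 bases before each start, it was present in 23 of 27025 promoters, or 0.0851%, and among the 8 members with a promoter only in Cxcl1 and Cxcl2, from which the letters were taken. GGAAGT or ACTTCC was present in 20.0% of the promoters and in those of Ccl3, Ccl6, Ccl9 and Ccl22. A match describes the letters and not a bound site.

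Some libraries stood apart from their group. Principal component 1 (49.5% of the variance) set lard-fed conventional mice 5 and 6 at 33.0 and 42.1, against -4.62 to 8.92 in mice 1 to 4 of that group. Transcripts of another tissue were present: the mean log2 value of 12 liver markers was 8.24 to 9.74 in germ-free mice fed fish oil, against 6.27 to 8.29 in the remaining groups. The mean of 10 intestinal epithelium markers was 10.20 in lard-fed germ-free mouse 4, with 6.77 and 6.89 in mice 2 and 5 of that group and 5.72 to 6.28 in all other mice. The adipocyte list was high throughout, with group means between 12.56 and 12.87. Where leaving these libraries out changed a call of a member, the value without them stands beside the result. The liver list mean was also fitted as a covariate. Its group mean was 9.04 in germ-free mice fed fish oil, against 6.74 to 7.28 in the other groups, so it largely follows that group. In comparisons that use that group, the covariate and the group cannot be told apart, and a call lost with the covariate does not give the part of liver transcripts.

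With lard in conventional mice, 5 of the 10 chemokines rose relative to fish oil and 0 fell. They were Ccl6, Ccl9, Ccl22, Cxcl2 and Cxcl12. In all, 15.4% of the 19938 genes rose and 15.6% fell in that comparison. Called means an adjusted p under 0.05 in limma, Benjamini-Hochberg over all named genes. The median log2 change was 0.54 over the members and -0.04 over all genes. In germ-free mice the same diet comparison gave 3 members higher (Ccl6, Ccl9 and Cxcl12) and 3 lower (Ccl4, Ccl22 and Cxcl1), beside 20.4% of all genes higher and 27.1% lower. There the median change was -0.02 over the members and -0.08 over all genes, so the members moved in both directions.

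With lard, 3 members were higher in conventional mice (Ccl5, Ccl22 and Cxcl12) than in germ-free mice and 0 lower, beside 8.77% and 7.48% of all genes. With fish oil, 0 members were higher in conventional mice and 2 were lower (Ccl3 and Cxcl12), beside 7.15% and 5.21%. The diet effect differed between conventional and germ-free mice for 2 members, Ccl22 and Cxcl12, both more positive in conventional mice. That test called 2.81% of all genes in the same direction and 4.38% in the other. Where limma called 0 members in a direction, the count at an unadjusted p under 0.05 was 0 lower with lard in conventional mice, 0 lower by status with lard, 1 higher by status with fish oil and 0 in the negative direction for the difference of diet effects, beside 21.1%, 13.2%, 14.3% and 11.2% of all genes. These comparisons share groups of mice, so their results are not independent of each other. The share of all genes given for each comparison is also the background for the counts over marker lists below.

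**Figure D1:**
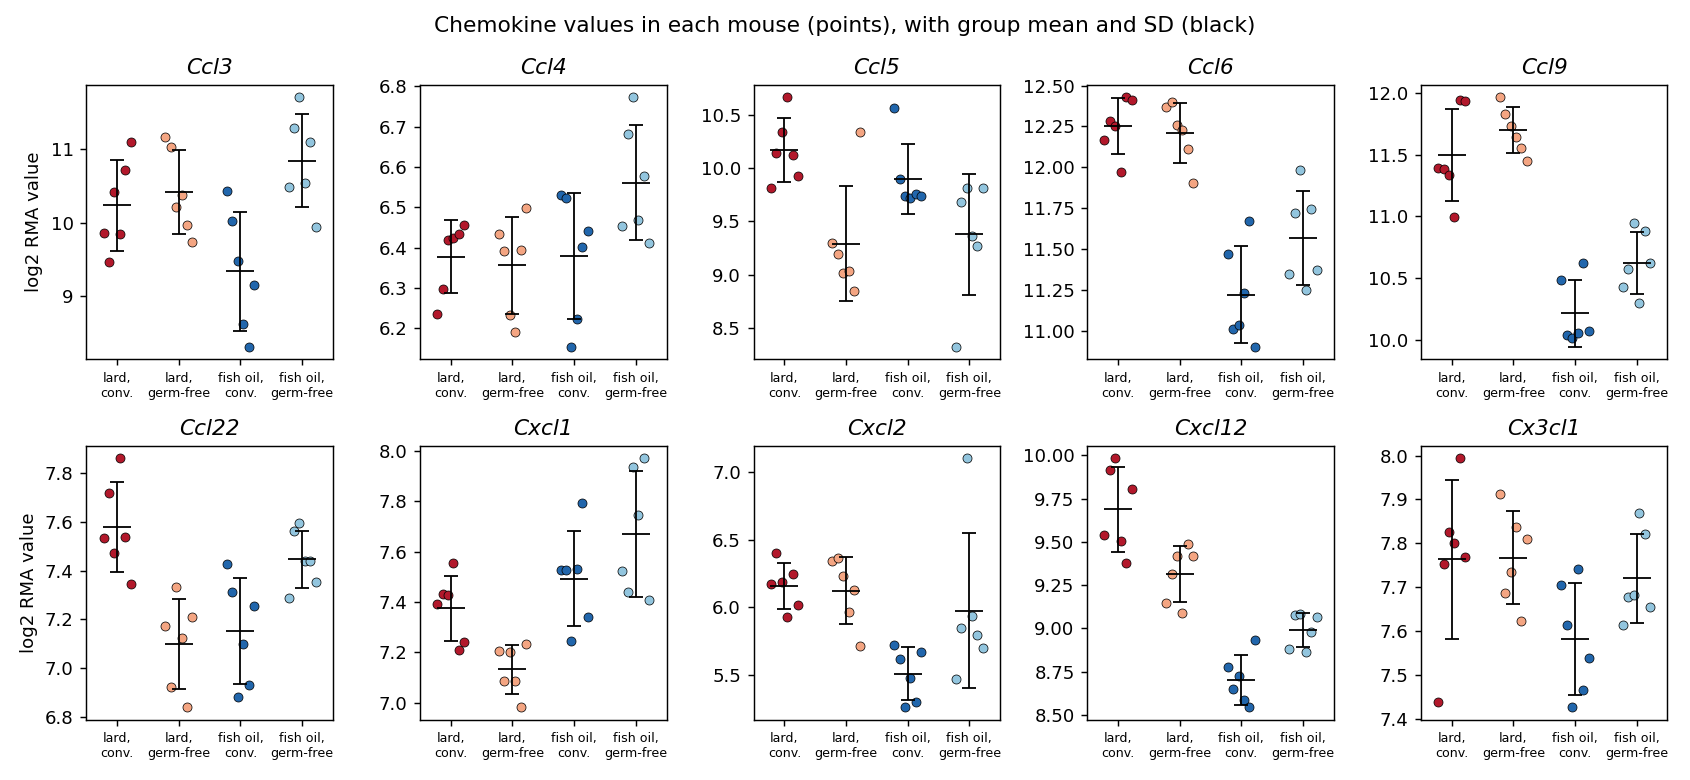
Log2 RMA value of each chemokine (1 panel each) in each mouse, with groups in the order lard conventional, lard germ-free, fish oil conventional and fish oil germ-free, and with the group mean and SD in black and a separate vertical scale for each panel. Ccl9 in the lard-fed groups lies from 11.00 upward, above all fish oil-fed mice, while Ccl3 is lowest in fish oil-fed conventional mice and spreads over more than 1 log2 unit in every group.

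**Figure D2:**
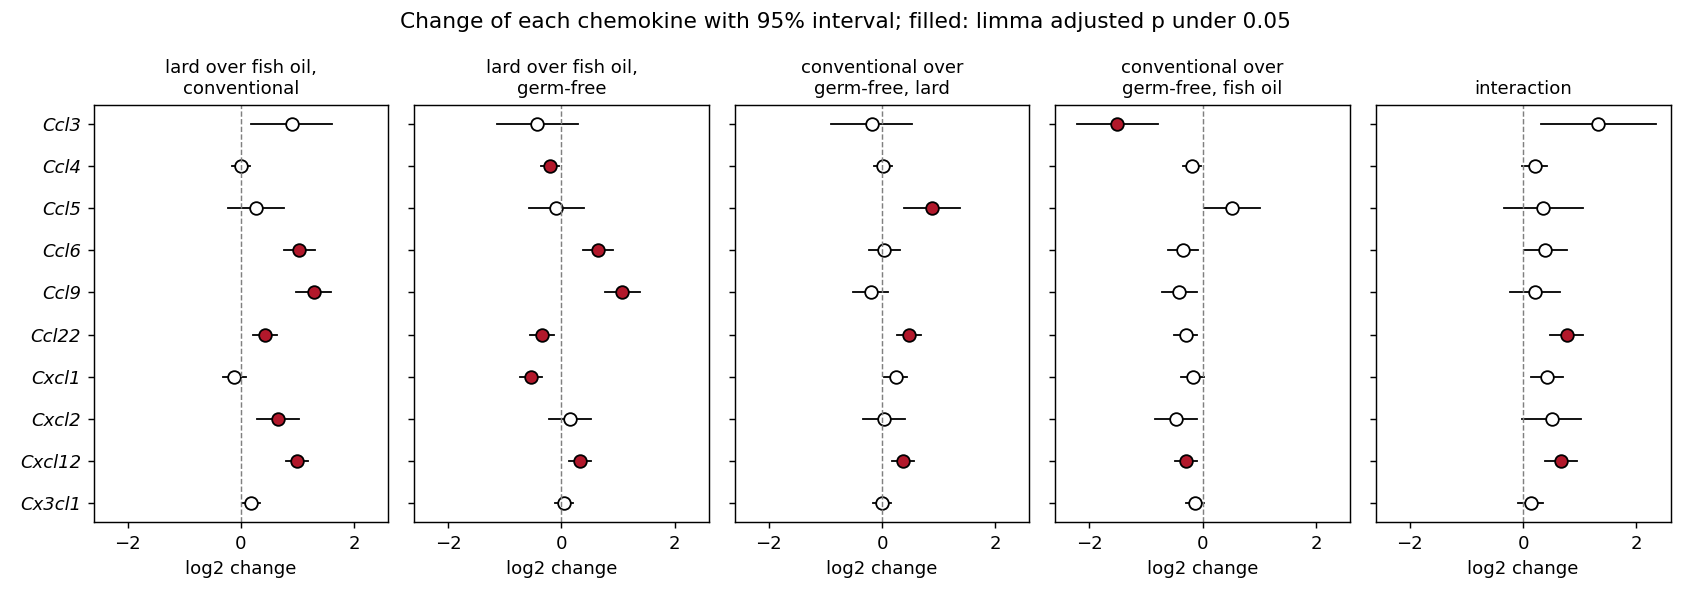
Log2 change of each chemokine (rows) in the 5 comparisons (panels), with the 95% confidence interval of limma as a line and a filled point where the adjusted p is under 0.05. Ccl6, Ccl9 and Cxcl12 lie to the right of 0 in both diet panels, and Ccl22 lies on opposite sides of 0 in them.

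Ccl9 and Ccl6, the myeloid CC chemokines, followed the diet. Ccl9 had a lowest, median and highest value of 11.00, 11.39 and 11.94 in lard-fed conventional mice, against 10.02, 10.06 and 10.62 in fish oil-fed conventional mice. In germ-free mice it had 11.45, 11.69 and 11.96 with lard, against 10.30, 10.60 and 10.95 with fish oil. The lowest lard-fed mouse thus lay above the highest fish oil-fed mouse in either status. The log2 change was 1.28 ± 0.15 (SE, n = 6 each), or 2.43-fold, in conventional mice (limma adjusted p = 7.99e-07). In germ-free mice it was 1.07 ± 0.15, or 2.10-fold (limma adjusted p = 5.10e-06). The difference between the 2 diet effects was 0.21, with a 95% interval from -0.22 to 0.64 (limma adjusted p = 0.606). It was -0.011 without lard-fed conventional mice 5 and 6.

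Ccl6 had 11.97, 12.27 and 12.43 as lowest, median and highest value in lard-fed conventional mice, against 10.90, 11.14 and 11.67 in fish oil-fed conventional mice, with no overlap. In lard-fed germ-free mice it had 11.90, 12.24 and 12.40, against 11.25, 11.54 and 11.98 in fish oil-fed germ-free mice. Here the groups touched, because lard-fed mouse 6 lay below fish oil-fed mouse 3. Ccl6 rose by 1.03 ± 0.13, 2.05-fold, in conventional mice (limma adjusted p = 2.43e-06) and by 0.64 ± 0.13, 1.56-fold, in germ-free mice (limma adjusted p = 3.32e-04). With the liver marker mean as a covariate the germ-free change of Ccl6 was 0.32 and lost its call (limma adjusted p = 0.264), while that of Ccl9 kept its call.

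Bacterial status left both genes without a call. Conventional over germ-free, Ccl9 differed by -0.20 with lard and by -0.41 with fish oil (limma adjusted p = 0.419 and 0.0711). The lard value moved to -0.42 without lard-fed conventional mice 5 and 6 (limma adjusted p = 0.0261). Those 2 mice had 11.94 and 11.93 for Ccl9, against 11.00 to 11.39 in the other 4 of their group. Leaving out fish oil-fed conventional mouse 5 or lard-fed conventional mouse 4 brought the fish oil difference of Ccl9 past the threshold (limma adjusted p = 0.0384 and 0.0489). So did 4 other alternatives: quantile normalization repeated (0.0373), array weights (0.0201), fitting only the groups compared (0.0437) and leaving out lard-fed conventional mice 5 and 6 (0.0250). For Ccl6 the fish oil difference was -0.35 (limma adjusted p = 0.0821). It passed without fish oil-fed conventional mouse 5 (-0.44, limma adjusted p = 0.0293) and with quantile normalization repeated (-0.42, limma adjusted p = 0.0273).

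The macrophage marker list moved with Ccl9. Of its 10 genes, 8 rose and 1 fell with lard in conventional mice, and 8 rose and 2 fell in germ-free mice. Its mean ranged from 10.25 to 10.98 in lard-fed conventional, 10.62 to 11.11 in lard-fed germ-free, 9.75 to 10.18 in fish oil-fed conventional and 9.78 to 10.40 in germ-free mice fed fish oil. Lard-fed conventional mice 5 and 6, high in Ccl9, had the 2 highest list means of their group, 10.98 and 10.96. The part of macrophage number in the Ccl9 and Ccl6 results was not tested.

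**Figure D3:**
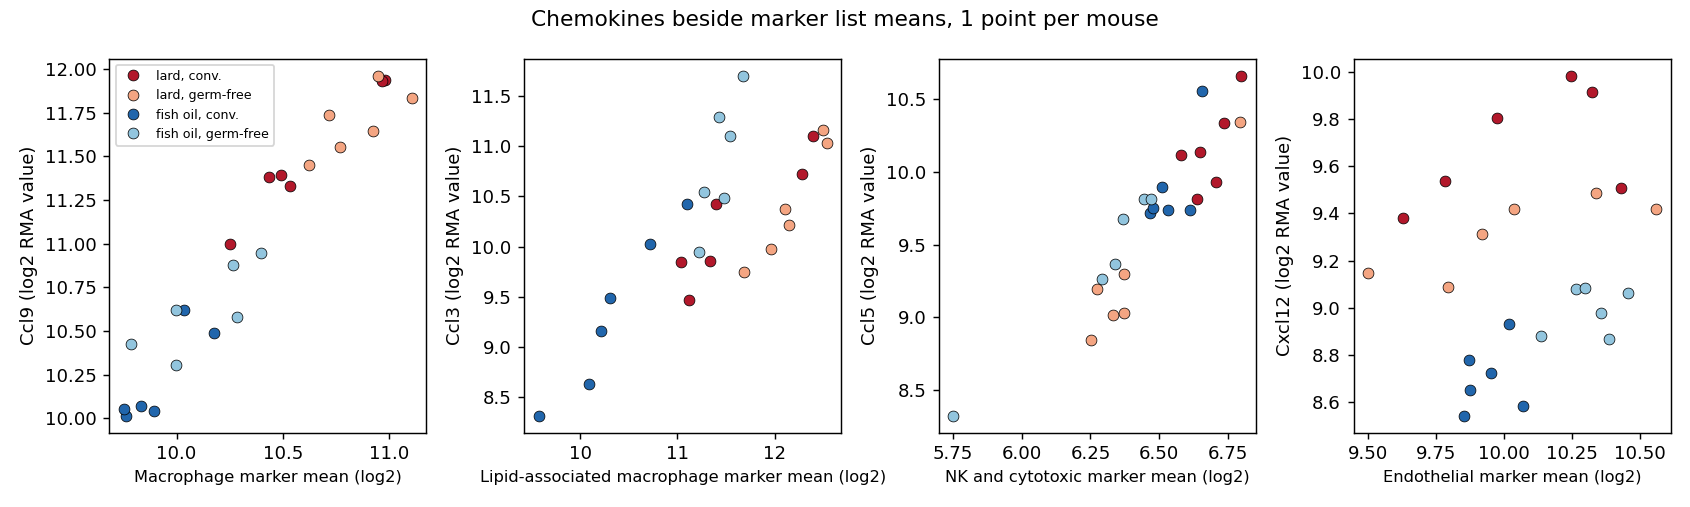
Ccl9, Ccl3, Ccl5 and Cxcl12 (vertical, log2 RMA value) against the mean log2 value of the macrophage, lipid-associated macrophage, NK and cytotoxic, and endothelial marker lists (horizontal), 1 point per mouse, coloured by group. Lard-fed conventional mice 5 and 6 sit at the upper right for Ccl9, at 11.94 and 11.93, and fish oil-fed germ-free mouse 1 sits alone at the lower left for Ccl5, at 8.33.

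Ccl3, a macrophage chemokine and ligand of Ccr1, was lowest in fish oil-fed conventional mice. Its lowest, median and highest values there were 8.32, 9.32 and 10.43, against 9.95, 10.82 and 11.70 in fish oil-fed germ-free mice. The 2 groups overlapped through fish oil-fed conventional mice 1 and 2, at 10.43 and 10.03. The log2 difference, conventional over germ-free, was -1.50 ± 0.35, so Ccl3 was 2.84-fold lower in conventional mice (limma adjusted p = 0.00616). The SD of Ccl3 within a group was 0.57 to 0.81.

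Among mice fed lard, Ccl3 ran from 9.47 to 11.10 in conventional mice, with a median of 10.14, and from 9.74 to 11.16 in germ-free mice, with a median of 10.29. The difference of -0.18 had a 95% interval from -0.90 to 0.54 (limma adjusted p = 0.802). In conventional mice the diet difference of Ccl3 was 0.90 and just missed the threshold (limma adjusted p = 0.0522). It passed when the gene filter on low values was set (limma adjusted p = 0.0393), with the liver marker mean as a covariate (0.0364), and in 9 of 24 fits that left out 1 mouse, over which the value ran from 0.69 to 1.11. The 9 were the fits without fish oil-fed conventional mouse 1 or 2, fish oil-fed germ-free mouse 3 or 6, lard-fed conventional mouse 1, 2 or 4, or lard-fed germ-free mouse 1 or 6. In germ-free mice the diet difference was -0.43 (limma adjusted p = 0.310). The difference between the diet effects was 1.32 with a 95% interval from 0.31 to 2.34 (limma adjusted p = 0.104), and it passed without fish oil-fed conventional mouse 1 (1.54, limma adjusted p = 0.0485).

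Markers of lipid-associated macrophages, the lipid-loaded macrophages of obese fat, were also lowest in fish oil-fed conventional mice by their list mean. Lpl, which adipocytes also express, went the other way, with a group mean of 13.55 there and 13.44 to 13.51 in the other groups. Of 7 measured markers, 0 were higher and 5 were lower in conventional than in germ-free mice fed fish oil. The list mean was 9.57 to 11.10 in fish oil-fed conventional mice, against 11.22 to 11.67 in germ-free mice fed fish oil. It was 11.04 to 12.40 in lard-fed conventional and 11.68 to 12.54 in lard-fed germ-free mice. Fish oil-fed conventional mouse 1, with the highest Ccl3 of its group, had the highest list mean, and mouse 5, with the lowest Ccl3, had the lowest. The part of these cells in the Ccl3 result was not tested.

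Ccl4, a close relative of Ccl3, hardly varied. Its mean over all mice, 6.42, lay at the 29.9th percentile of the gene means, below the low-value filter. At such a level a weak signal and a lack of change cannot be told apart. Its values over all 24 mice lay between 6.16 and 6.77, and the group means lay between 6.36 and 6.56. In germ-free mice it had 6.19, 6.39 and 6.50 as lowest, median and highest value with lard, against 6.41, 6.52 and 6.77 with fish oil. The groups overlapped, and the log2 change of -0.20 ± 0.08 was called (limma adjusted p = 0.0299). The call was lost with the array medians subtracted (limma adjusted p = 0.125), with quantile normalization repeated (-0.12, adjusted p = 0.187), without mice 2, 4 and 5 of the lard-fed germ-free group (0.186), and without any 1 of fish oil-fed germ-free mouse 2 or 3 or lard-fed germ-free mouse 3 or 4 (0.0647 to 0.0834). With the liver covariate the change was -0.39 and kept its call. In conventional mice the change was -0.00131, with a 95% interval from -0.16 to 0.15.

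Ccl5, the T and NK cell chemokine, was higher in conventional mice fed lard than in germ-free mice fed lard. Its lowest, median and highest values were 9.82, 10.13 and 10.66 in lard-fed conventional mice, against 8.85, 9.11 and 10.34 in lard-fed germ-free mice. Without germ-free mouse 6, at 10.34, the other 5 germ-free mice lay at 8.85 to 9.30, below every conventional mouse. The log2 difference was 0.88 ± 0.24, or 1.84-fold (limma adjusted p = 0.0120). Without mice 2, 4 and 5 of the lard-fed germ-free group, which leaves 3 mice in that group, it was 0.62 (limma adjusted p = 0.303).

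With fish oil, Ccl5 had 9.72, 9.75 and 10.56 in conventional mice, against 8.33, 9.52 and 9.82 in germ-free mice. The groups overlapped and the difference of 0.52 was not called (95% interval 0.03 to 1.01, limma adjusted p = 0.157). It ran from 0.31, without fish oil-fed germ-free mouse 1, to 0.61 over the fits that left out 1 mouse, and was 0.013 with the liver covariate (limma adjusted p = 0.988). The status differences of the 2 diets differed by 0.36, with a 95% interval from -0.33 to 1.05 (limma adjusted p = 0.576). Diet gave no call for Ccl5 in conventional or germ-free mice (0.27 and -0.09, limma adjusted p = 0.432 and 0.764).

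NK and cytotoxic markers moved with Ccl5. Of 8 genes, 3 were higher and 0 lower in conventional than in germ-free mice fed lard, and 0 were called by limma with fish oil, where 5 were higher at an unadjusted p under 0.05. The list mean was 6.58 to 6.80 in lard-fed conventional mice, against 6.25 to 6.79 in lard-fed germ-free mice, where mouse 6 had the 6.79. In fish oil-fed mice it was 6.47 to 6.65 in conventional mice, against 5.75 to 6.47 in germ-free mice, where mouse 1, with the lowest Ccl5 of all, had the 5.75. Of 8 T cell markers, 1 was higher and 0 lower in conventional mice with either diet. The part of these cells in the Ccl5 result was not tested.

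Ccl22, the Ccr4 ligand of dendritic cells and macrophages, moved in opposite directions with diet in the 2 statuses. In conventional mice it had 7.35, 7.54 and 7.86 as lowest, median and highest value with lard, against 6.88, 7.18 and 7.42 with fish oil. In germ-free mice it had 6.84, 7.15 and 7.33 with lard, against 7.29, 7.44 and 7.59 with fish oil. Both pairs of groups overlapped at their edges. Ccl22 rose by 0.43 ± 0.10 in conventional mice, 1.34-fold (limma adjusted p = 0.00175), and fell by 0.35 ± 0.10 in germ-free mice (limma adjusted p = 0.00657). The difference between the diet effects was 0.77 ± 0.14 (limma adjusted p = 0.00243). It was called under every alternative fitted for it and without each mouse in turn.

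Seen by status, Ccl22 was 0.48 ± 0.10 higher in conventional than in germ-free mice fed lard (limma adjusted p = 0.00208), and these groups did not overlap. With fish oil the difference was -0.29 (limma adjusted p = 0.0523), and 7 of 24 fits that left out 1 mouse called it (without fish oil-fed conventional mouse 1 or 2, fish oil-fed germ-free mouse 1, lard-fed conventional mouse 4 or 6, or lard-fed germ-free mouse 3 or 5). It was also called with the low-value filter (limma adjusted p = 0.0384), with array weights (0.0449), with only the groups compared (0.0429), without lard-fed conventional mice 5 and 6 (0.0421) and without mice 2, 4 and 5 of the lard-fed germ-free group (0.0439). Without mice 2, 4 and 5 of the lard-fed germ-free group the fall with lard in germ-free mice was -0.21 (limma adjusted p = 0.188) and the status difference with lard was 0.34 (limma adjusted p = 0.124). With the liver covariate the germ-free diet change was -0.44 (limma adjusted p = 0.0660).

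Dendritic cell markers moved in part like Ccl22. Of 7 genes, 5 rose and 0 fell with lard in conventional mice, and 1 rose and 1 fell in germ-free mice. Of the same 7, 5 were higher in conventional than in germ-free mice fed lard, and 0 were called by limma with fish oil, where 1 was higher at an unadjusted p under 0.05. The list mean was 7.97 to 8.26 in lard-fed conventional, 7.63 to 7.85 in lard-fed germ-free, 7.44 to 7.89 in fish oil-fed conventional and 7.36 to 7.80 in germ-free mice fed fish oil. The part of these cells in the Ccl22 result was not tested.

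Cxcl1 and Cxcl2, the neutrophil attractants with the shared promoter run above, did not move together. Cxcl2 had 5.93, 6.18 and 6.40 as lowest, median and highest value in lard-fed conventional mice, against 5.26, 5.55 and 5.72 in fish oil-fed conventional mice. These ranges did not overlap. Cxcl2 rose by 0.65 ± 0.18, 1.57-fold (limma adjusted p = 0.00700). The signal of Cxcl2 was weak, with a mean over all mice of 5.94, at the 21.7th percentile of the gene means and below the low-value filter. Cxcl1 had 7.21, 7.41 and 7.55 in lard-fed conventional mice, against 7.24, 7.53 and 7.79 in fish oil-fed conventional mice. Its ranges overlapped almost wholly, and the change of -0.12 was not called (95% interval -0.32 to 0.09, limma adjusted p = 0.404).

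In germ-free mice it was Cxcl1 that changed. It had 6.98, 7.14 and 7.23 in lard-fed germ-free mice, against 7.41, 7.63 and 7.97 in fish oil-fed germ-free mice, with no overlap. Cxcl1 fell by 0.54 ± 0.10, so that it was 1.45-fold lower with lard (limma adjusted p = 1.10e-04), and the call held under every alternative tried, with values from -0.86, with the liver covariate, to -0.46. Cxcl2 had 5.71, 6.18 and 6.36 in lard-fed germ-free mice, against 5.47, 5.82 and 7.10 in germ-free mice fed fish oil, and its change of 0.15 was not called (limma adjusted p = 0.498). The 7.10 was that of fish oil-fed germ-free mouse 3. Without that mouse Cxcl2 rose by 0.37 with lard in germ-free mice (limma adjusted p = 0.0116).

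Status gave no call for either gene in the fit of all 24 mice. Cxcl1 was 0.24 higher in conventional mice fed lard (limma adjusted p = 0.0956) and differed by -0.18 with fish oil (limma adjusted p = 0.260). The lard difference was called with array weights (limma adjusted p = 0.0339), with only the groups compared (0.0402), without lard-fed conventional mice 5 and 6 (0.32, adjusted p = 0.0320) and with the liver covariate (0.32, adjusted p = 0.0186). The difference between the 2 diet effects of Cxcl1 was 0.42 (limma adjusted p = 0.0659). It was called without fish oil-fed conventional mouse 5, fish oil-fed germ-free mouse 2 or 6, or lard-fed conventional mouse 6 (limma adjusted p = 0.0358 to 0.046). It was also called with the low-value filter (0.0475), with array weights (0.0328), without lard-fed conventional mice 5 and 6 (0.50, adjusted p = 0.0253) and with the liver covariate, where the value was 0.80 (adjusted p = 0.0126). Cxcl2 differed by -0.47 between conventional and germ-free mice fed fish oil (limma adjusted p = 0.0909), by -0.57 without fish oil-fed germ-free mouse 1 (limma adjusted p = 0.0436), and by -0.24 without fish oil-fed germ-free mouse 3, the one at 7.10 (limma adjusted p = 0.199).

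Neutrophil markers moved in both directions where Cxcl2 rose. Of 9 genes, 2 rose (S100a8 by 1.34 and Csf3r by 0.28) and 3 fell (S100a9 by 1.06, Cxcr2 and Elane) with lard in conventional mice, and 0 rose and 5 fell in germ-free mice. The list mean was 6.13 to 6.51 in lard-fed conventional, 6.00 to 6.18 in lard-fed germ-free, 6.20 to 6.76 in fish oil-fed conventional and 6.14 to 6.82 in germ-free mice fed fish oil. Cxcr2, the receptor of both ligands and itself on the neutrophil list, fell with lard by 0.62 in conventional and by 0.84 in germ-free mice (limma adjusted p = 0.0344 and 0.00359). Cxcr1, the related receptor, fell by 0.23 and by 0.41 (limma adjusted p = 0.0200 and 1.2e-04). The part of neutrophils in the Cxcl1 and Cxcl2 results was not tested.

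Cxcl12, the stromal ligand of Cxcr4, rose with lard in both statuses and rose more in conventional mice. It had 9.38, 9.67 and 9.98 as lowest, median and highest value in lard-fed conventional mice, against 8.54, 8.69 and 8.93 in fish oil-fed conventional mice. In germ-free mice it had 9.09, 9.37 and 9.49 with lard, against 8.87, 9.02 and 9.08 with fish oil. Neither pair of ranges overlapped. The log2 change was 0.99 ± 0.10, 1.98-fold, in conventional mice (limma adjusted p = 7.69e-08) and 0.32 ± 0.10, 1.25-fold, in germ-free mice (limma adjusted p = 0.00827). The 2 effects differed by 0.66 ± 0.14 (limma adjusted p = 0.00499), a call that held under every alternative fitted for it and without each mouse in turn.

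By status, Cxcl12 was 0.37 ± 0.10 higher in conventional than in germ-free mice fed lard (limma adjusted p = 0.00819) and fell by 0.29 ± 0.10 in conventional relative to germ-free mice fed fish oil (limma adjusted p = 0.0476). The lard difference was 0.36 without mice 2, 4 and 5 of the lard-fed germ-free group and was then not called (limma adjusted p = 0.113). The fish oil call was lost with the array medians subtracted (limma adjusted p = 0.105), with the liver covariate (0.104), without mice 2, 4 and 5 of the lard-fed germ-free group (0.0520), and in 13 of 24 fits that left out 1 mouse. Those were the fits without fish oil-fed conventional mice 1 to 5, fish oil-fed germ-free mice 2 to 6, or lard-fed germ-free mouse 2, 3 or 6. With the liver covariate, which largely follows the fish oil-fed germ-free group, the germ-free diet change of Cxcl12 was 0.19 (limma adjusted p = 0.399). The fish oil difference by status was then -0.42, larger in size than the -0.29 without the covariate.

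Endothelial markers did not rise with Cxcl12 in the diet comparisons. Of 8 genes, 0 were called by limma with diet in conventional mice, where 1 was higher at an unadjusted p under 0.05, and 0 rose and 3 fell with lard in germ-free mice. The list mean was 9.63 to 10.43 in lard-fed conventional, 9.50 to 10.56 in lard-fed germ-free, 9.85 to 10.07 in fish oil-fed conventional and 10.14 to 10.45 in germ-free mice fed fish oil. By status with fish oil, where Cxcl12 was lower in conventional mice, 0 of the 8 were higher and 2 were lower, 6 of them lower at an unadjusted p under 0.05, and the list means of the groups did not overlap. The part of these cells in the Cxcl12 result was not tested. Of 6 measured markers of adipose progenitors, 1 rose and 0 fell with lard in conventional mice, and 4 rose and 0 fell in germ-free mice. By status with lard, where Cxcl12 was higher in conventional mice, 0 of the 6 were higher and 2 were lower there. By status with fish oil 0 were called by limma, with 1 higher and 1 lower at an unadjusted p under 0.05.

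Cx3cl1, the membrane-bound ligand, was not called in any comparison. It had 7.44, 7.79 and 7.99 as lowest, median and highest value in lard-fed conventional mice, 7.62, 7.77 and 7.91 in lard-fed germ-free, 7.43, 7.58 and 7.74 in fish oil-fed conventional, and 7.61, 7.68 and 7.87 in fish oil-fed germ-free mice. Every pair of groups overlapped. The diet change was 0.18 in conventional mice (95% interval 0.02 to 0.34, limma adjusted p = 0.0775). It was 0.25 without lard-fed conventional mouse 1, the lowest of its group at 7.44 (limma adjusted p = 0.00795), and it also passed without fish oil-fed conventional mouse 4 (limma adjusted p = 0.0488) and with the liver covariate (0.0329).

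The groups were put in order of their mean for each member. Cxcl12 was the one member whose neighbouring groups all differed in the fit, from lard-fed conventional mice down through lard-fed germ-free and fish oil-fed germ-free to fish oil-fed conventional mice, the last step being the one with the adjusted p of 0.0476. Ccl6 and Cxcl2 had the same order, and in Ccl6 the step from lard-fed germ-free to fish oil-fed germ-free mice was the one that passed. Ccl9 and Cx3cl1 had lard-fed germ-free mice on top, with lard-fed conventional mice next. Ccl3, Ccl4 and Cxcl1 were highest in germ-free mice fed fish oil, and none of their neighbouring steps was called. Ccl5 and Ccl22 were highest in lard-fed conventional and lowest in lard-fed germ-free mice. Fish oil-fed conventional mice were lowest for 5 members (Ccl3, Ccl6, Ccl9, Cxcl2 and Cxcl12) and, by a smaller margin, for Cx3cl1.

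Receptors were read beside their ligands. Of 21 measured chemokine receptors, 7 rose and 2 fell with lard in conventional mice, beside 15.4% and 15.6% of all genes. In germ-free mice 4 rose and 5 fell, beside 20.4% and 27.1%. In conventional mice fed lard, 2 were higher and 0 lower than in germ-free mice fed lard, beside 8.77% and 7.48%. With fish oil 0 were higher and 1 was lower, beside 7.15% and 5.21%. The difference between the diet effects was called by limma for 0 of the 21 receptors, with 4 at an unadjusted p under 0.05. Of all genes, limma called 2.81% in the positive and 4.38% in the negative direction there. Ccr1, on which Ccl3, Ccl5, Ccl6 and Ccl9 act, rose by 0.58 ± 0.15 in conventional mice, with a mean of 6.61 ± 0.31 with lard and 6.03 ± 0.12 with fish oil (SD, n = 6 each, limma adjusted p = 0.00473). In germ-free mice the Ccr1 mean was 6.53 ± 0.28 with lard and 6.20 ± 0.36 with fish oil. Ccr3, an eosinophil receptor that binds Ccl5, rose by 0.58 in conventional and by 0.87 in germ-free mice (limma adjusted p = 0.0231 and 7.6e-04). Ccr4, the receptor of Ccl22, was not called in any comparison.

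Cxcr4, the receptor of Cxcl12, rose with its ligand in conventional mice, with a mean of 9.35 ± 0.23 with lard and 8.90 ± 0.28 with fish oil (log2 change 0.45 ± 0.13, limma adjusted p = 0.0103). It was lower in conventional than in germ-free mice fed fish oil, with a mean of 8.90 ± 0.28 in conventional and 9.63 ± 0.19 in germ-free mice (log2 change -0.73 ± 0.13, limma adjusted p = 0.001). In germ-free mice, where Cxcl12 rose with lard, Cxcr4 had a mean of 9.65 ± 0.26 with lard and 9.63 ± 0.19 with fish oil. With lard, where Cxcl12 was higher in conventional mice, the Cxcr4 mean was 9.35 ± 0.23 in conventional and 9.65 ± 0.26 in germ-free mice, without a call. Ackr3, the scavenger of Cxcl12, fell with lard by 0.50 in germ-free mice, with a mean of 8.26 ± 0.20 with lard and 8.76 ± 0.09 with fish oil (limma adjusted p = 0.0114). Cx3cr1, the receptor of Cx3cl1 on monocytes and macrophages, rose with lard by 0.52 in conventional mice (limma adjusted p = 4.3e-04) and by 0.25 in germ-free mice (limma adjusted p = 0.0482). It was also 0.41 higher in conventional than in germ-free mice fed lard (limma adjusted p = 0.00784), while its ligand was not called. Ackr1, which binds many inflammatory chemokines on venules and red cells, rose by 0.57 with lard in conventional mice (limma adjusted p = 0.00163). In germ-free mice the Ackr1 mean was 8.25 ± 0.27 with lard and 8.23 ± 0.19 with fish oil. Ackr2, a decoy for inflammatory CC ligands, was not called in either diet comparison.

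Of 22 other measured chemokine ligands of a list of 24, 3 rose and 3 fell with lard in conventional mice, beside 15.4% and 15.6% of all genes. In germ-free mice 1 rose and 9 fell, beside 20.4% and 27.1%. In conventional mice the greatest called rises were those of Cxcl10, an interferon-induced ligand of Cxcr3 (1.39), Ccl19, a ligand of Ccr7 (1.08), and Cxcl16, a scavenger and ligand of Cxcr6 (0.94). The falls were those of Ccl24 (-0.57), Cxcl11 (-0.39) and Ccl1 (-0.19). In germ-free mice Cxcl16 rose by 0.68, and the greatest falls were those of the B cell attractant Cxcl13 (-1.67), Cxcl9 (-0.94) and Ccl17, which shares Ccr4 with Ccl22 (-0.90). In mice fed lard, Cxcl10 (1.08) and the platelet chemokine Ppbp (0.79) were higher in conventional mice and Ccl28 (-0.32) was lower. With fish oil, Pf4, another platelet chemokine, was 0.55 higher in conventional mice. The diet effect differed for Cxcl10 (1.27, limma adjusted p = 0.0163) and Ccl19 (0.97, limma adjusted p = 0.0244), in the direction seen for Ccl22 and Cxcl12.

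Among named genes, the 3 whose values were most like each member over the 24 mice were found by Pearson's correlation. They are given as a description, since the mice share diets and status. Clone, predicted and locus-style names were left out of the search. So were names of olfactory and vomeronasal receptors, microRNAs, small nucleolar RNAs, and some immunoglobulin and T cell receptor segments. Ccl9 was most like Tbxas1 (r = 0.973), Tmem106a (0.972) and the integrin gene Itgam (0.971). Ccl6 was most like Ccl9 (0.961), Alox5ap (0.957) and Cfp (0.954). Within groups, with each group mean removed, the correlation of Ccl6 and Ccl9 was 0.850. Ccl5 was most like the T cell receptor component Cd3g (0.912), the cytotoxic granule gene Nkg7 (0.900) and Ripor2 (0.805). Ccl3 was most like Tfec (0.887), Npy (0.871) and Cnrip1 (0.859).

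The other members had these nearest genes. Cxcl12 was most like Nepn (0.897), Casq1 (0.892) and the apelin receptor Aplnr (0.890). Cxcl1 was most like Dnajb5 (0.894), Fgfbp3 (0.870) and Ankrd24 (0.869). Cxcl2 was most like the activin subunit Inhba (0.823), the zinc transporter Slc39a14 (0.796) and Fosl1 (0.785). Ccl22 was most like Supt5 (0.818), Jaml (0.804) and Pkig (0.769), Cx3cl1 was most like Zbtb42 (0.805), Cd276 (0.787) and Ino80b (0.768), and Ccl4 was most like Eef1a2 (0.785), Clec4n (0.729) and Cib3 (0.718).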

How the data were processed

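RNA of epididymal fat was measured in 24 mice with one-colour Affymetrix arrays, from 250 ng of total RNA each, per the labels. The authors deposited 1 log2 value for each probe set and mouse, and the submitters' processing notes name RMA. No source used here gives its version or the scan dates. RMA equalises the distributions of the arrays and compresses low signals, which understates changes of weakly expressed genes. The values ranged from 2.19 to 14.59, the median of an array from 7.09 to 7.20, and no array repeated another. The array medians were 7.17 to 7.20 in germ-free and 7.10 to 7.13 in conventional mice fed fish oil. With lard they were 7.09 to 7.14 in germ-free and 7.09 to 7.18 in conventional mice. Precision is limited by the number of arrays. Of 35556 probe sets, 21789 had 1 gene symbol in the platform annotation, 1621 several and 12146 none, and 21698 symbols were matched by Entrez ID to RefSeq names. Per gene the probe set with the highest mean was kept, which gave 19938 genes with no filter. Changes were compared within a gene. Percentiles of the gene means, and levels called weak or high, set different probe sets beside each other. No table relates the levels of different probe sets, so these are rough guides.

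Group means were fitted with limma 3.58.1 (lmFit and eBayes, R 4.3.3) over all 24 arrays, with 5 contrasts, two-sided tests and Benjamini-Hochberg adjustment over all genes at 0.05. The fit was tested on simulated data. Alternatives changed the scaling, a filter at the 40th percentile of the gene means, probe set choice, array weights, the prior, the samples fitted, a block for mouse number, a liver covariate, and which mice were left out. The genes named are all 10 members, their receptors, up to 3 other ligands per direction and comparison, and the 3 genes most like each member. The members and lists were chosen with earlier results of these data known. Each array is 1 mouse, per the labels, and was taken as 1 replicate.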

Additional observations from a re-analysis of the deposited data

Results flagged for a closer look

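Single mice lay far from their group in 4 cases, by a test for outliers that chance passes in about 1 of 20 groups, over 40 groups of a member and condition. Ccl5 was 10.34 in lard-fed germ-free mouse 6, against 8.85 to 9.30 in the other 5. Ccl5 was 10.56 in fish oil-fed conventional mouse 1, against 9.72 to 9.89 in the other 5, and 8.33 in fish oil-fed germ-free mouse 1, against 9.26 to 9.82 in the other 5. Cxcl2 was 7.10 in fish oil-fed germ-free mouse 3, against 5.47 to 5.94 in the other 5. Ccl5 thus had an outlying mouse in 3 of its 4 groups.

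The effect of diet differed between conventional and germ-free mice for 4 chemokines, by the interaction term in limma. The difference, conventional minus germ-free, was 0.77 for Ccl22 (limma adjusted p = 0.00243), 0.66 for Cxcl12 (0.00499), 0.97 for Ccl19 (0.0244) and 1.27 for Cxcl10 (0.0163).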

How the results depend on the processing

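Over the alternatives that did not leave out single mice, 532 of the members' changes kept their direction and side of the threshold, 22 became called, 13 lost their call and 13 changed sign. The 532 include the alternatives of probe set choice. Those left the members' values unchanged, because each member had 1 probe set, and could alter a call only through the other genes. The number of members called was within 1.5 times its value under every alternative for the diet comparison in conventional mice and for the interaction. In germ-free mice 6 members were called with diet, and 3 with the liver covariate. With lard, 3 members were called by status, 5 without lard-fed conventional mice 5 and 6, and 0 without mice 2, 4 and 5 of the lard-fed germ-free group, a fit with 3 mice in that group that called 83 genes higher and 94 lower of all 19938. With fish oil, 2 members were called by status, 1 with median centring or the liver covariate, and 4 with quantile normalization repeated, array weights, only the groups compared, or without lard-fed conventional mice 5 and 6. Leaving out each mouse in turn gave 5 to 7 and 5 to 6 members called with diet in conventional and germ-free mice, 3 to 3 and 1 to 4 by status with lard and fish oil, and 2 to 3 for the interaction. The low-value filter left 8 members, without Ccl4 and Cxcl2.

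Sign changes were of changes that were not called. With diet in conventional mice Ccl4 was 0.029 with the liver covariate. With diet in germ-free mice Ccl5 was 0.17 without mice 2, 4 and 5 of the lard-fed germ-free group, and with the liver covariate Cxcl2 was -0.24 and Cx3cl1 -0.14. By status with lard, Ccl4 was -8.48e-04 with median centring, -0.00102 with quantile normalization, -0.012 without lard-fed conventional mice 5 and 6 and -0.0098 without mice 2, 4 and 5 of the lard-fed germ-free group. There Ccl6 was -0.025 with quantile normalization and -0.043 without lard-fed conventional mice 5 and 6, and Cx3cl1 was 0.020 with array weights and 0.041 with the liver covariate. The interaction of Ccl9 was -0.011 without lard-fed conventional mice 5 and 6. Leaving out single mice gave -0.046 to 0.029 for Ccl4 with diet in conventional mice, and by status with lard -0.012 to 0.050 for Ccl4, -0.021 to 0.097 for Ccl6, -0.047 to 0.083 for Cxcl2 and -0.050 to 0.061 for Cx3cl1. The causes were not tested.

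Scaling, the low-value filter and the mice included moved the split of all called genes. With diet in germ-free mice 4072 rose and 5396 fell, against 4808 and 3313 with median centring, 3794 and 3260 with the low-value filter and 2891 and 2387 without mice 2, 4 and 5 of the lard-fed germ-free group. By status with fish oil 1425 were higher and 1039 lower, against 2757 and 701 with median centring, and for the interaction 561 and 874, against 312 and 1688. The replicate block for mouse number left the members called at 5, 6, 3, 2 and 2 in the 5 comparisons. Mice of the same number had a median correlation of their deviations of -0.00247 over 36 pairs, 9 of them over 0.1. Over 180 pairs of different number the median was 8.56e-04, with 46 over 0.1. These values show no pairing by number but cannot exclude a weak one.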

Other observations

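One mouse led its group for most of the members. Fish oil-fed germ-free mouse 3 had the highest value of its 6 for 8 of the 10 chemokines, among them Ccl3 at 11.70, Ccl4 at 6.77 and Cxcl2 at 7.10, which were also the highest of all 24 mice. Fish oil-fed conventional mouse 1 was highest of its group for 5 of 10. These mice were picked after their values were seen, and how many of all named genes each led was not counted. Fish oil-fed germ-free mouse 3 also had the highest macrophage and neutrophil list means of its group, 10.40 and 6.82. Its liver and adipocyte list means, 8.24 and 12.75, were the lowest there. The T cell list mean was highest in mouse 6 of that group, at 6.98. The part of tissue make-up was not tested.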
